A study of Mus musculus with 2 samples.

Results

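The S100 genes described here are S100a4, S100a6, S100a8, S100a9, S100a10 and S100a11, 6 of the 31017 gene symbols counted in each library. They were taken by name and were followed across immune cell classes in a pair of mouse mammary tumours. The tumours were grown from the PyMT-M and the PyMT-N tumour line, each injected into the mammary gland and taken 4 weeks later, when 0.7 to 1 cm across. PyMT names the middle T antigen of polyoma virus, an oncogene that drives mammary tumours in mice. What M and N stand for is not stated in the labels, which give neither the strain, sex and age of the mice nor how many tumours went into a library. Living cells positive for CD45, the surface protein shared by leukocytes, were sorted and sequenced with a 5′ droplet method, which counts RNA molecules by unique molecular identifiers (UMIs). The study's title names interferon-stimulated neutrophils, and the question followed here is how the S100 genes are spread over the cell types of each tumour and whether their levels differ between the tumours within a cell type. There is 1 library per tumour. No test between tumours was therefore possible, and the intervals given are 95% intervals of counting error only, which leave out the variation between tumours and the lack of independence between cells.

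S100 proteins are small calcium-binding proteins of the EF-hand type that mostly act as dimers. S100a8 and S100a9 form the heterodimer calprotectin, which fills the cytosol of neutrophils, binds zinc and manganese, and acts on receptors such as Toll-like receptor 4 when released. S100a10 is the light chain of the complex with annexin A2, a receptor site for plasminogen, and unlike its relatives does not need calcium. S100a4, S100a6 and S100a11 bind annexins, non-muscle myosin and other partners of the cytoskeleton and membrane, and S100a4 is known as a gene of motile and effector cells.

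The 6 genes lie on chromosome 3 of the mouse genome (build GRCm38, GENCODE M21 annotation). S100a4 (ENSMUSG00000001020) lies at chr3:90603771-90606045 on the plus strand, S100a6 (ENSMUSG00000001025) at chr3:90612882-90624181 on the plus strand, S100a8 (ENSMUSG00000056054) at chr3:90668978-90670035 on the plus strand and S100a9 (ENSMUSG00000056071) at chr3:90692632-90695721 on the minus strand, together within 92.0 kb. S100a11 (ENSMUSG00000027907) at chr3:93520488-93526287 and S100a10 (ENSMUSG00000041959) at chr3:93555080-93564643, both on the plus strand, form a second group within 44.2 kb. All 6 are protein-coding. The annotated gene Gm42674 (chr3:90601904-90605885) overlaps S100a4 on the same strand and had 0 UMIs in every cell class of both libraries. Whether reads that fit both genes were counted cannot be seen from the matrices, so the S100a4 level is uncertain in that respect.

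The stretches before the gene starts are shown for S100a8 and S100a9, whose levels moved together, and for S100a4, whose level differed most consistently between the tumours. They come from RefSeq (GRCm38.p6), read 5′ to 3′ along the gene, and stop before the first annotated exon. Capitals mark matches, on either strand, to 6 short motifs that were searched: TTGCNNAA (bound by C/EBP factors), GAGGAA (ETS factors such as PU.1), TGANTCA (AP-1), TATAAA (the TATA box), GGGCGG (the GC box) and ACGTG (the core of hypoxia response elements). No match shown overlaps another.
S100a8, chr3:90668821-90668977, plus strand: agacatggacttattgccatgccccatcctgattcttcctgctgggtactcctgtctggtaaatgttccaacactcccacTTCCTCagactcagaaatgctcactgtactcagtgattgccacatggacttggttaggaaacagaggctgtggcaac
S100a9, chr3:90695722-90695971, minus strand: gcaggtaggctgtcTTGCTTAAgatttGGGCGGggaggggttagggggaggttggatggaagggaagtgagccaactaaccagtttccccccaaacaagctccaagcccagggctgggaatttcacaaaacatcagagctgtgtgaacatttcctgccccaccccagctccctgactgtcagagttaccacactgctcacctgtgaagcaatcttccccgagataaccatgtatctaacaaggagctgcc
S100a4, chr3:90603520-90603769, plus strand: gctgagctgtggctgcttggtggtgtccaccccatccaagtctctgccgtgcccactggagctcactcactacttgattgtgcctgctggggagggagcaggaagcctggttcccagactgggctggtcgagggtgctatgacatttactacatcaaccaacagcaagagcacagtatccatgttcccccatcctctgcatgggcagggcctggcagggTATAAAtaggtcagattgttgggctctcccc

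In the S100a8 stretch the match is to GAGGAA, on the opposite strand. Between the end of that stretch and the RefSeq start of S100a8, in bases that are annotated as exon and not printed, lie a match to TATAAA beginning 30 bases and a second match to GAGGAA beginning 36 bases before the start. In the S100a9 stretch the matches are to TTGCNNAA and to GGGCGG. In the S100a4 stretch the match is to TATAAA, beginning 31 bases before the RefSeq start. Among 32851 promoter windows of 250 bases in the same table, 9.56% held TTGCNNAA, 23.3% held GAGGAA, 12.4% held TATAAA and 32.7% held GGGCGG. A match is a match of letters and no evidence of binding. S100a10 is not in that table.

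Cells were classed by the UMIs of marker genes that include no S100 gene, and a class is called by its markers with the suffix -like. In the PyMT-M library 6917 cells were kept, with a median of 4971 UMIs, and in the PyMT-N library 4793 cells, with a median of 1922 UMIs. Neutrophil-like cells numbered 44 in PyMT-M and 2904 in PyMT-N, monocyte-like cells 187 and 252, macrophage-like cells 5064 and 676, T-like cells 460 and 135, NK-like cells 344 and 30, and B-like cells 43 and 60. Cells with mixed monocyte and macrophage markers, 108 and 110, are called intermediate. A UMI of Ptprc, which encodes CD45, was found in 69.7% of the cells from PyMT-M and 68.9% of those from PyMT-N. PyMT-M also held 151 epithelial-like cells, which the sort should have left out, and 461 cells of PyMT-M and 602 of PyMT-N fitted no class. The libraries shared 60 cell barcodes. Levels are in CPM: the UMIs of a gene summed over the cells of a class, per 1000000 UMIs of that class.

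S100a8 and S100a9 were among the most abundant RNAs of the neutrophil-like cells in both tumours, and were far lower in the other named classes. S100a8 stood at 27000 CPM (25824 to 28217) in PyMT-M against 39857 CPM (39697 to 40017) in PyMT-N neutrophil-like cells. S100a9 stood at 47029 CPM (45472 to 48626) and 56448 CPM (56258 to 56638). The pair made up 7.40% of all UMIs of these cells in PyMT-M and 9.63% in PyMT-N. Of all S100a8 and S100a9 UMIs, 83.7% lay in the neutrophil-like class in PyMT-M and 96.0% in PyMT-N. Most of the others lay in macrophage-like cells (9.46%) and unclassed cells (6.70%) in PyMT-M, and in unclassed cells (3.27%) in PyMT-N. The unclassed cells of PyMT-N held S100a8 at 5541 CPM and S100a9 at 8787 CPM.

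Over all neutrophil-like cells the pair was higher in PyMT-N, by 0.56 for S100a8 (0.50 to 0.63) and 0.26 for S100a9 (0.21 to 0.31) on the log2(CPM + 1) scale. These differences rest on 44 PyMT-M cells. Without cells that held a UMI of the granule genes Ngp, Camp or Ltf, the S100a8 difference was 0.12 (0.05 to 0.19), and that of S100a9 turned to the other direction, at -0.05 with an upper bound just under 0. As a mean over cells the S100a8 difference was 0.25, and the S100a9 difference was 0.02. After every cell was reduced to 1000 UMIs, leaving out 3 and 146 shallower cells, the median cell held 59 UMIs of the pair in PyMT-M and 50 in PyMT-N. The quartiles were 17 and 106 UMIs in PyMT-M and 14 and 120 in PyMT-N, so the cells of the tumours overlapped over most of their range. Under 10 UMIs of the pair were held by 17.1% of the cells from PyMT-M and 20.3% of those from PyMT-N.

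**Figure D1:**
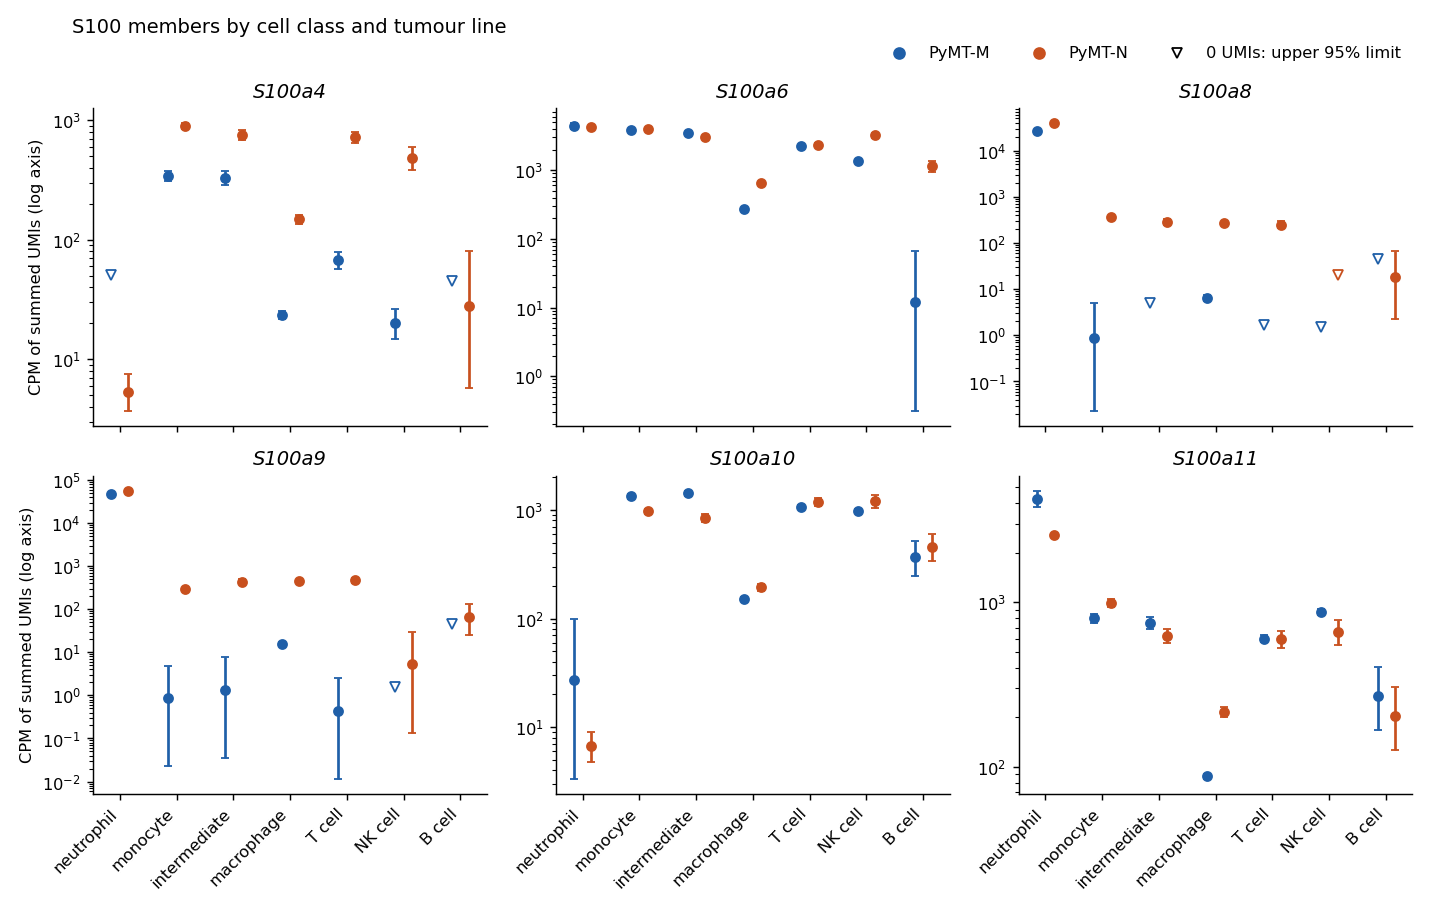
Level of each S100 gene (CPM of summed UMIs, log axis) in 7 cell classes of the PyMT-M (blue) and PyMT-N (orange) tumour, with 95% counting intervals and open triangles at the upper limit where no UMI was found. S100a8 and S100a9 stand highest in neutrophil-like cells, S100a10 lowest there, and S100a4 is higher in PyMT-N in the monocyte, intermediate, macrophage, T and NK classes.

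Within the PyMT-N neutrophil-like cells the S100 genes differed between subsets. The 186 cells with a UMI of Ngp, Camp or Ltf, the secondary granule genes of immature neutrophils, held S100a8 at 104480 CPM against 31370 CPM in the other 2718 cells. S100a9 stood at 113670 against 48932 CPM, S100a6 at 12247 against 3278 CPM and S100a11 at 4800 against 2270 CPM. The log2 differences were 1.74 for S100a8, 1.22 for S100a9, 1.90 for S100a6 and 1.08 for S100a11. These cells were also deeper, with a median of 3222.5 against 1704.5 UMIs, and the part of depth in choosing them was not tested. The PyMT-M cells differed in the other direction. The 40 of 44 without granule gene UMIs stood at 28882 CPM of S100a8 and 50688 CPM of S100a9, against 27000 and 47029 CPM over all 44. S100a6 stood at 4783 against 4393 CPM and S100a11 at 4647 against 4284 CPM. The PyMT-M cells with granule gene UMIs thus held less of these genes, but are too few for a level.

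The 925 PyMT-N cells with a UMI of the interferon-induced genes Ifit1, Ifit3, Rsad2 or Isg15 also held more of these genes. S100a8 stood at 50534 against 33280 CPM in the 1979 cells without, and S100a9 at 69407 against 48465 CPM. The log2 differences were 0.60 and 0.52, and 0.73 for S100a6 and 0.67 for S100a11. The cells with and without had median depths of 2020 and 1652 UMIs. In the 19 and 25 PyMT-M neutrophil-like cells divided the same way, S100a8 stood at 24647 and 28729 CPM, a log2 difference of -0.22 (-0.35 to -0.09), and S100a6 at 5381 and 3668 CPM.

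Cells with Siglecf, a lectin of tumour-infiltrating neutrophils, and cells with the hypoxia gene Hilpda held less. In the 534 PyMT-N cells with Siglecf, S100a8 stood at 27228 CPM against 42905 CPM in the other 2370 cells, and S100a6 at 2282 against 4811 CPM. In the 1230 cells with Hilpda, S100a8 stood at 32998 against 45792 CPM. The PyMT-M subsets, of 9 Siglecf and 7 Hilpda cells, had the same direction for S100a8, with log2 differences of -0.75 and -1.85. The subsets can share cells, and the granule cells were not left out of these comparisons. All 2718 PyMT-N cells without granule gene UMIs stood at 31370 CPM of S100a8, under those with Hilpda. The part of the granule cells in the Hilpda, Siglecf and interferon differences was not tested. Nor was the part of depth in choosing cells by a UMI of these genes.

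**Figure D2:**
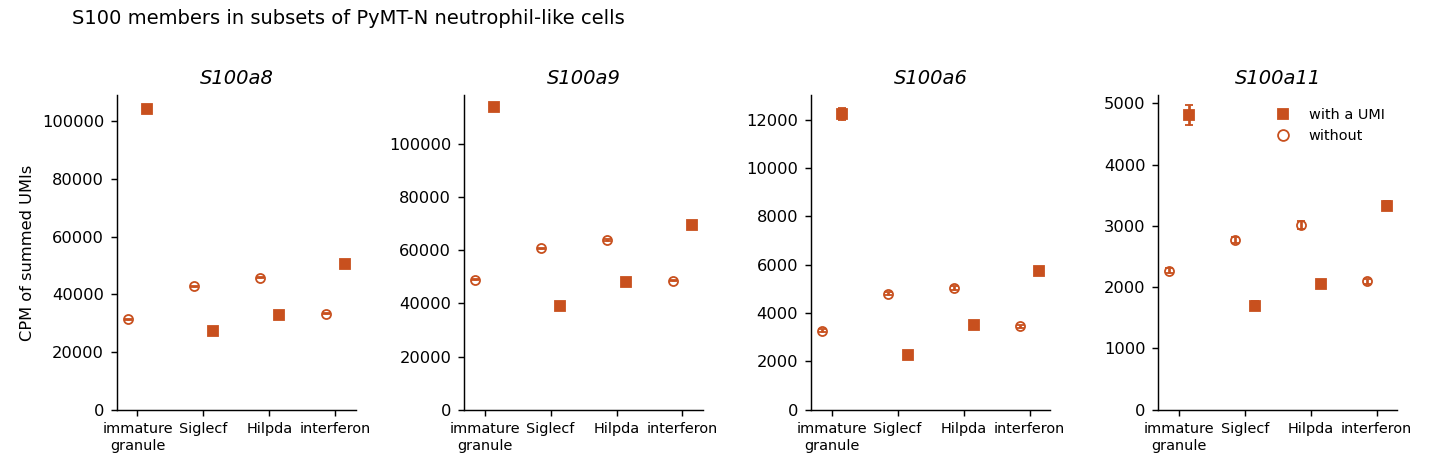
Level of 4 S100 genes (CPM of summed UMIs, linear axes from 0) in PyMT-N neutrophil-like cells with (filled squares) and without (open circles) a UMI of the genes of each subset, with 95% counting intervals. S100a8, S100a9, S100a6 and S100a11 are higher in cells with granule or interferon genes and lower in cells with Siglecf or Hilpda.

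In PyMT-N most of the pair's UMIs outside the neutrophil-like class, 19653, lay in unclassed cells, of which 434 of 602 had a UMI and 274 had 10 or more. All 8 neutrophil markers were detected in these cells, summed to 1690 CPM. In the macrophage, T and monocyte classes the pair was found mostly as large numbers of UMIs in a few cells. In PyMT-M macrophage-like cells, 613 UMIs of the pair lay in 16 of 5064 cells, and 5 cells with 10 or more held 96.6% of them. In PyMT-N macrophage-like cells, 142 of 676 had a UMI, and 26 cells with 10 or more held 93.7%. In PyMT-N T-like cells, 19 of 135 had a UMI, and a pair of cells with 280 and 48 UMIs held 94.5% of all. In PyMT-N monocyte-like cells, 62 of 252 had a UMI, and 17 cells held 92.4%. Cells with the highest doublet scores had been left out before. Of the 8 neutrophil markers, all 8 had UMIs in PyMT-N T-like cells, summed to 86.9 CPM, against 2 (8.45 CPM) in PyMT-M T-like cells, where Csf3r, Cxcr2, Retnlg, Mmp9, Hdc and Trem1 were at 0. In macrophage-like cells they summed to 155 CPM in PyMT-N against 72.3 CPM in PyMT-M, and in monocyte-like cells to 221 and 56.7 CPM. Marker UMIs were also found without the pair. PyMT-M epithelial-like cells held 2 of the 8 markers, at 1949.5 CPM, and 2 UMIs of the pair in 151 cells. Of 1480 PyMT-M macrophage-like cells with a marker UMI, 12 had a UMI of the pair. Those 1480 cells were deeper, with a median of 6083 UMIs against 4406 in the cells without marker UMIs.

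With only the cells that had 0 UMIs of the neutrophil markers, the level of the pair fell in PyMT-N from 718 to 40.2 CPM in T-like, from 733 to 39.4 CPM in macrophage-like and from 644 to 194 CPM in monocyte-like cells. In PyMT-M macrophage-like cells it fell from 21.8 to 0.284 CPM. B-like cells, which should lack the pair, held it at 82.8 CPM in PyMT-N, as exactly 1 UMI in each of 9 of 60 cells (median depth 1458 UMIs), and at 0 in 43 cells of PyMT-M (median 1825 UMIs), which allows a share of up to 6.98% of cells with a UMI. NK-like cells held 1 UMI of the pair in 30 cells of PyMT-N and 0 in 344 cells of PyMT-M. As a percentage of the neutrophil-like level in the same library, the PyMT-N values without neutrophil marker UMIs were 0.041% in macrophage-like, 0.042% in T-like, 0.088% in B-like, 0.006% in NK-like and 0.201% in monocyte-like cells. A panel of 14 other neutrophil genes, such as Ngp, Camp and Wfdc21, stood in the same cells at 0.162%, 0.241%, 0.477%, 0.146% and 1.01% of its neutrophil-like level. Some of that panel, such as Lcn2, Mirt1 and Cd177, also has UMIs in other classes. The B-like level is only a reference and rests on 9 UMIs, with an interval of 38.6 to 160 CPM in cells without marker UMIs. B-like cells were the shallowest of these classes, with a median of 1429 UMIs against 5012 in monocyte-like cells. The same number of UMIs per cell makes a higher CPM in shallower cells. The part of free neutrophil RNA in these levels was not tested.

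Most monocyte-like cells of PyMT-N without neutrophil marker UMIs held no UMI of the pair, and a few held it in another proportion than neutrophil-like cells. S100a8 made up 41.4% (41.3 to 41.5) of the pair's UMIs in PyMT-N neutrophil-like cells. In the monocyte-like cells without neutrophil marker UMIs it made up 77.9% (70.3 to 84.2), or 116 of 149 UMIs. In macrophage-like cells chosen the same way it made up 26.3% (17.9 to 36.1) of 99 UMIs. The monocyte-like value rests on few cells: 25 of 149 had a UMI of the pair, and 3 cells with 10 or more held 85.2% of the UMIs, 80 of them in 1 cell. The other 146 cells held 22 UMIs, beside 9 UMIs in 59 B-like cells without neutrophil marker UMIs. In CPM these were 29.1 and 84.4, at unequal depths. The PyMT-M monocyte-like cells held 2 UMIs of the pair in 187 cells.

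**Figure D3:**
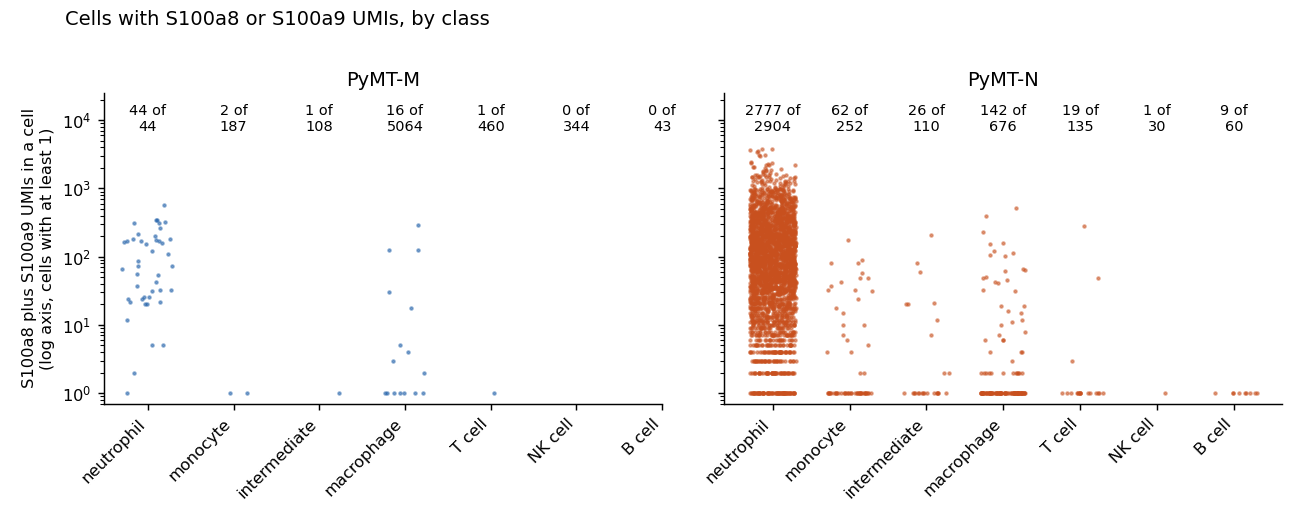
S100a8 plus S100a9 UMIs in each cell that has at least 1 (log axis), by class, in PyMT-M (left) and PyMT-N (right), with the number of such cells of all cells of the class above. Outside neutrophil-like cells most points lie at 1 or 2 UMIs, and a few cells reach the numbers of neutrophil-like cells.

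Between the tumours, 3 of 6 measured members were higher in PyMT-N by 2-fold or more in monocyte-like and in intermediate cells, 5 of 6 in macrophage-like, 3 of 6 in T-like, 2 of 4 in NK-like and 1 of 3 in B-like cells. Of all genes with at least 20 UMIs, 3.37% were that much higher in monocyte-like, 3.81% in intermediate, 3.54% in macrophage-like, 5.29% in T-like, 5.85% in NK-like and 7.24% in B-like cells. No member was 2-fold higher in PyMT-M in these 6 classes, where 5.4%, 6.29%, 8.24%, 10.9%, 20.3% and 8.77% of genes were. S100a8 and S100a9 are among the counted members in the monocyte, intermediate, macrophage and T classes. A few PyMT-N cells hold most of their UMIs there. The pair was also higher in PyMT-N in cells with fewer than 10 of its UMIs. In these it stood at 0.748 CPM in PyMT-M against 48.3 CPM in PyMT-N macrophage-like cells, and at 0.445 and 40.8 CPM in T-like cells. In monocyte-like cells it stood at 1.77 and 52.9 CPM, and in intermediate cells at 1.37 and 46.5 CPM. These PyMT-M levels rest on 21 UMIs or fewer. The other counted members are S100a4 in 5 classes, S100a6 in macrophage-like, NK-like and B-like cells, and S100a11 in macrophage-like cells. The median log2 difference over the members was 1.94 in macrophage-like and 1.77 in T-like cells, beside -0.18 and -0.12 over all genes measured. Without S100a8 and S100a9 it was 1.27 in macrophage-like and 0.10 in T-like cells, so that in T-like cells S100a4 alone of the other 4 members was past 2-fold. In neutrophil-like cells 1 of 6 members was counted as higher in PyMT-N (34.8% of all genes) and 1 of 6 in PyMT-M (13.8%). These were S100a4 and S100a10, which were at or near 0 there.

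**Figure D4:**
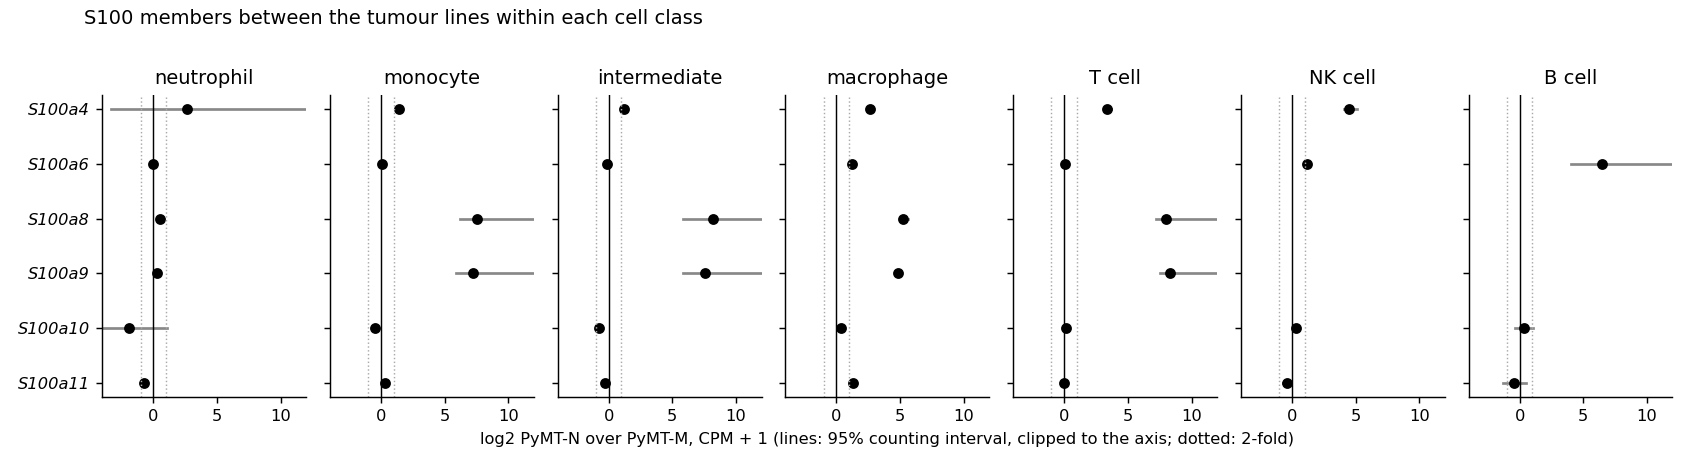
Difference between the tumours (log2 PyMT-N over PyMT-M of CPM + 1) for each S100 gene with at least 20 UMIs in a class, with 95% counting intervals clipped to the axis and dotted lines at 2-fold. S100a4 lies right of the line in the monocyte, intermediate, macrophage, T and NK panels. S100a6 and S100a11 lie within the dotted lines in the monocyte, intermediate and T panels, and S100a10 lies left of 0 in the monocyte and intermediate panels.

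S100a4 was higher in PyMT-N in each monocyte, macrophage and lymphoid class in which it had 20 UMIs or more. In monocyte-like cells it stood at 342 CPM (308 to 378) in PyMT-M against 900.0 CPM (851 to 951) in PyMT-N, a log2 difference of 1.39 (1.23 to 1.57). In intermediate cells it stood at 329 and 754 CPM, a log2 difference of 1.19 (0.97 to 1.43). In macrophage-like cells it stood at 23.4 and 148 CPM, a log2 difference of 2.60 (2.49 to 2.82). None of these intervals of the tumours overlap.

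The difference was larger in lymphoid cells. In T-like cells S100a4 stood at 67.6 CPM (57.3 to 79.2) in PyMT-M against 720 CPM (646 to 800) in PyMT-N, a log2 difference of 3.39 (3.13 to 3.70). In NK-like cells it stood at 20.03 CPM (14.8 to 26.6) and 480 CPM (386 to 591), a log2 difference of 4.52 (4.06 to 5.12), with 89 UMIs in 30 PyMT-N cells. B-like cells held 0 UMIs in PyMT-M and 3, in 1 cell, in PyMT-N. Dendritic-like cells, too few in PyMT-N for a comparison with 16 cells, stood at 98.9 and 536 CPM.

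The difference was spread over many cells. A UMI of S100a4 was found in 99 of 460 T-like cells of PyMT-M and 82 of 135 of PyMT-N, although the PyMT-N cells were the shallower ones, with medians of 3849 and 2928 UMIs. At 1000 UMIs per cell the shares were 5.66% (3.73 to 8.19) and 39.7% (31.3 to 48.6), with 1 and 4 cells left out. In NK-like cells, with 5 and 0 left out, they were 0.885% (0.183 to 2.56) and 36.7% (19.9 to 56.1). In monocyte-like cells, with 5 and 11 left out, they were 25.8% and 61.4%. In macrophage-like cells, with 232 and 31 left out, they were 1.47% and 9.46%. Without thinning, 146 of 187 and 229 of 252 monocyte-like, 314 of 5064 and 175 of 676 macrophage-like and 32 of 344 and 15 of 30 NK-like cells had a UMI. For comparison, 0 of 43 and 1 of 60 B-like cells had one.

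Subsets of T-like cells differed between the tumours in number, and the S100a4 difference was present within each of those given here. Cells with Cd8a or Cd8b1, the genes of the CD8 co-receptor, were 316 of 460 in PyMT-M and 22 of 135 in PyMT-N. S100a4 was lower in cells with these genes than in those without in both tumours, at 50.9 against 105 CPM in PyMT-M and 406 against 821 CPM in PyMT-N. The log2 difference between the tumours was 2.97 (2.45 to 3.53) within the first and 2.96 (2.60 to 3.36) within the second. It was 3.09 (2.22 to 4.11) in cells with Cd4, 2.82 (1.38 to 4.76) in cells with the regulatory T cell gene Foxp3, 3.22 (2.84 to 3.63) in cells with γδ receptor genes or Il17a, and 3.61 (3.15 to 4.13) in cycling cells. The Foxp3 value rests on 4 UMIs in 8 PyMT-M cells. The 8 monocyte markers summed to 302 CPM in PyMT-M against 281 CPM in PyMT-N T-like cells, with Chil3, Vcan and Fn1 at 0 in both. T cell markers in NK-like cells summed to 285 CPM in PyMT-M (7 of 8 detected, Cd5 at 0) and 615 CPM in PyMT-N (5 of 8 detected, Bcl11b, Cd5 and Cd6 at 0). Their part in the NK-like difference was not tested.

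Neutrophil-like cells held almost no S100a4. PyMT-M had 0 UMIs in 44 cells, which allows a share of up to 6.82% of cells with a UMI, and PyMT-N had 32 UMIs, or 5.34 CPM, in 2904 cells. Of those 32 UMIs, 28 lay in 1 cell. No ratio is drawn from them, since the PyMT-N level is under the 40.9 CPM that 3 UMIs would make in PyMT-M.

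S100a6 was shared by neutrophil-like, monocyte-like, T-like and NK-like cells. It stood at 4393 CPM (3926 to 4900) in PyMT-M against 4319 CPM (4267 to 4372) in PyMT-N neutrophil-like cells, with a log2 difference of -0.02 (-0.18 to 0.14). In monocyte-like cells it stood at 3832 and 4039 CPM (0.08, 0.02 to 0.13) and in T-like cells at 2267 and 2336 CPM (0.04, -0.05 to 0.14). Over each of these whole classes the difference between the tumours was small, but parts of the T-like class differed in opposite directions. Within T-like cells with Cd8a or Cd8b1 S100a6 was lower in PyMT-N, at 2607 and 1506 CPM (-0.79, -1.02 to -0.57), and within those without it was higher, at 1510 and 2604 CPM (0.79, 0.66 to 0.91). With γδ receptor genes or Il17a the difference was 0.67 (0.54 to 0.81) and without them -0.54 (-0.68 to -0.40). Without granule gene UMIs the neutrophil-like difference was -0.55 (-0.71 to -0.38). S100a6 was 2-fold or more higher in PyMT-N in NK-like cells, at 1373 and 3206 CPM (1.22, 1.09 to 1.35), and in macrophage-like cells, at 270 and 647 CPM (1.26, 1.20 to 1.33). B-like cells held 1 UMI in PyMT-M and 124 UMIs in PyMT-N, in 11 of 60 cells, of which 3 cells held 63.7%. Their log2 ratio of 6.44 has an interval from 4.05 to 11.87.

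S100a10 was lowest in neutrophil-like cells, where S100a8 and S100a9 stood highest. Neutrophil-like cells held 2 UMIs, or 27.3 CPM (3.30 to 98.6), in PyMT-M and 40 UMIs, or 6.68 CPM (4.77 to 9.09), in PyMT-N. Monocyte-like cells stood at 1330 and 977 CPM (-0.44, -0.55 to -0.34), intermediate cells at 1417 and 839 CPM (-0.76, -0.91 to -0.60), T-like cells at 1069 and 1185 CPM (0.15, 0.02 to 0.28) and NK-like cells at 980.0 and 1204 CPM (0.30, 0.09 to 0.50). B-like cells stood at 365 and 460.0 CPM with overlapping intervals, and macrophage-like cells at 152 and 194 CPM. The T-like and NK-like levels are neighbours in this order, with intervals that overlap within PyMT-N.

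S100a11 was higher in the neutrophil-like cells of PyMT-M, at 4284 CPM (3823 to 4785) and 2564 CPM (2523 to 2605), a log2 difference of -0.74 (-0.90 to -0.57). Without granule gene UMIs the difference was past 2-fold, at -1.03 (-1.20 to -0.87). In cells with Hilpda it had the other direction, at 1.90 (0.78 to 3.35), on 6 UMIs in 7 PyMT-M cells. Monocyte-like cells stood at 799 and 991 CPM (0.31, 0.19 to 0.43), T-like cells at 602 and 596 CPM (-0.01, -0.20 to 0.17), NK-like cells at 879 and 658 CPM (-0.42, -0.69 to -0.15) and B-like cells at 267 and 202 CPM. Macrophage-like cells stood at 87.2 and 214 CPM (1.29, 1.18 to 1.41), the lowest of the 7 classes in PyMT-M. In PyMT-N their interval overlapped that of B-like cells. In the 151 epithelial-like cells of PyMT-M, S100a11 stood at 828 CPM and S100a6 at 442 CPM, while S100a4, S100a8 and S100a9 had 1 UMI each.

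S100a4, S100a6, S100a10 and S100a11 were all lower in macrophage-like than in monocyte-like cells, and the fall was followed along the macrophage share of monocyte plus macrophage marker UMIs. In PyMT-M, S100a6 stood at 3781 CPM in the 125 cells with a share of 0 to 20% and at 97.3 CPM in the 4730 cells with a share of 95 to 100%. In PyMT-N it stood at 4079 CPM in 184 cells and 208 CPM in 465 cells. S100a4 went from 363 to 7.13 CPM in PyMT-M and from 917 to 53.9 CPM in PyMT-N, S100a10 from 1374 to 56.9 and from 941 to 70.0 CPM, and S100a11 from 849 to 53.2 and from 985 to 131 CPM. In both tumours the largest fold step for each of the 4 genes was the last, from the 90 to 95% to the 95 to 100% bin.

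The order of the tumours along this axis was not the same for all 4 genes. S100a4 was higher in PyMT-N in all 7 bins. S100a6 was higher in PyMT-M in the bins from 40 to 95%, for example at 3231 and 2166 CPM at a share of 60 to 80%, and higher in PyMT-N at 95 to 100%. S100a10 was higher in PyMT-M in the 6 bins under 95%, at 1756 and 525 CPM at 60 to 80%. That PyMT-M value is the peak of the gene along the axis, above 1374 CPM at 0 to 20%. S100a11 was higher in PyMT-M in the bins from 40 to 90%, for example at 784 and 498 CPM at 60 to 80%. In the other bins it was higher in PyMT-N, at 53.2 and 131 CPM at 95 to 100%. Its intervals overlapped at 80 to 90% and at 90 to 95%. Of the macrophage-like cells, 4730 of 5064 in PyMT-M and 465 of 676 in PyMT-N lay in the last bin, so the whole classes hold unequal parts of this axis. Monocyte markers summed to 489 CPM in PyMT-M against 782 CPM in PyMT-N macrophage-like cells, with all 8 detected in both. Beyond these bins, the part of the monocyte markers in the S100a6 and S100a11 differences was not tested.

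**Figure D5:**
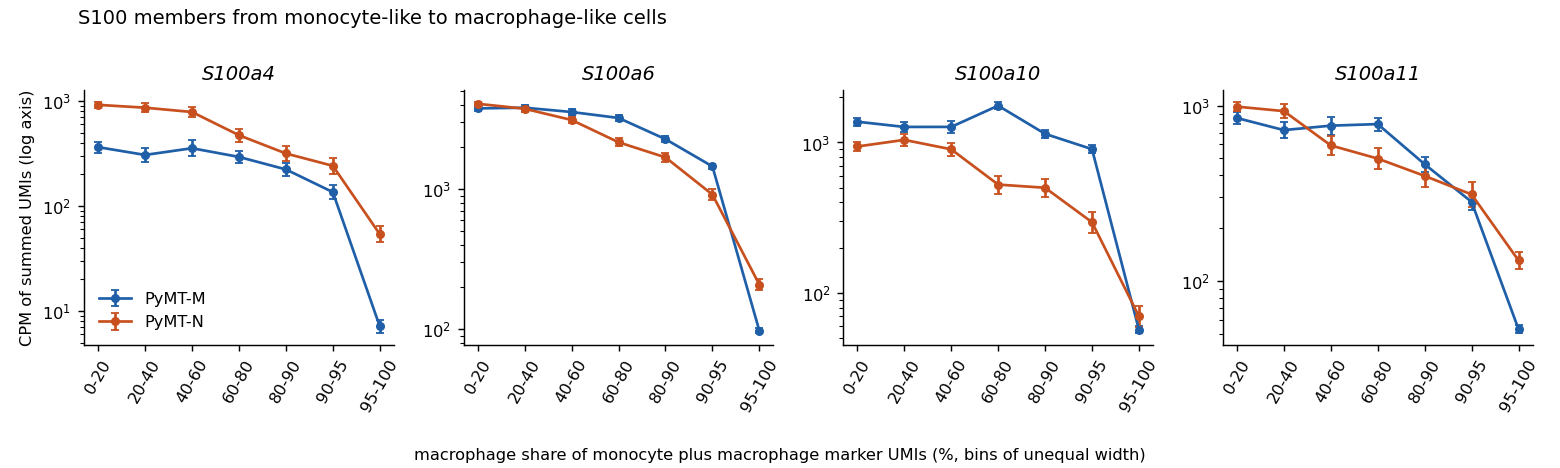
Level of 4 S100 genes (CPM of summed UMIs, log axes) in cells binned by the macrophage share of their monocyte plus macrophage marker UMIs (bins of unequal width), in PyMT-M (blue) and PyMT-N (orange), with 95% counting intervals. The genes are lowest in the last bin, S100a10 of PyMT-M after a peak at 60 to 80%, and S100a4 is higher in PyMT-N in each bin.

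Among macrophage-like cells, those with a UMI of Folr2, Lyve1 or Cd209f, genes of tissue-resident macrophages, held more S100a10 in both tumours. The 1072 such cells of PyMT-M stood at 361 CPM against 71.2 CPM in the other 3992, a log2 difference of 2.33 (2.25 to 2.44). The 138 such cells of PyMT-N stood at 369 against 138 CPM, a difference of 1.41 (1.20 to 1.64). S100a4 and S100a6 were also higher in these cells, by 1.74 and 1.63 in PyMT-M and by 0.57 and 0.52 in PyMT-N. The PyMT-M cells with these genes were deeper, with medians of 6696 and 4600 UMIs. S100a4 was higher in PyMT-N both within the resident-marked cells, at 48.3 and 196 CPM, and within the others, at 13.8 and 132 CPM.

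Of 10 other S100 genes in the files, S100a1 and S100a13 had 20 UMIs or more in several immune classes. S100a13 stood at 374 CPM in PyMT-M against 377 CPM in PyMT-N T-like cells and at 282 and 307 CPM in monocyte-like cells. S100a1 stood at 70.7 and 65.5 CPM in macrophage-like cells and at 613 CPM in the PyMT-M epithelial-like cells. Of the other S100 genes, 2 were measured in neutrophil-like, monocyte-like, intermediate, T-like and NK-like cells, and 4 in macrophage-like cells. Of these, 0 were 2-fold apart between the tumours in any of these classes. Of all genes there, 3.37% to 34.8% were that much higher in PyMT-N and 5.4% to 20.3% in PyMT-M. A count of 0 among 2 or 4 genes cannot be told from such shares. In B-like cells no other S100 gene had 20 UMIs.

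Outside neutrophil-like cells, receptors and partners of the S100 proteins were mostly under 2-fold apart between the tumours. In neutrophil-like cells 1 of 6 measured receptors was higher in PyMT-N and 3 were higher in PyMT-M, each on 7 PyMT-M UMIs or fewer, beside 34.8% and 13.8% of all genes. Tlr4, a receptor of S100a8 and S100a9, stood at 34.5 CPM in PyMT-M against 24.3 CPM in PyMT-N macrophage-like cells, and Bsg, another, at 431 and 470 CPM. Of 7 measured receptors 1, Alcam, was 2-fold higher in PyMT-N macrophage-like cells, at 8.003 and 19.9 CPM, beside 3.54% of all genes. Of 9 binding partners, 0 were 2-fold apart in monocyte-like, intermediate or macrophage-like cells. Of all genes there, 3.37%, 3.81% and 3.54% were that much higher in PyMT-N, and 5.4%, 6.29% and 8.24% in PyMT-M. In T-like cells 1 partner was higher in PyMT-N, beside 5.29% of all genes. In NK-like cells 2 were higher and 1 lower in PyMT-N, beside 5.85% and 20.3% of all genes. Anxa2, the partner of S100a10, stood at 375 and 891 CPM in NK-like cells, a log2 difference of 1.25, and at 252 and 238 CPM in T-like cells. In neutrophil-like cells, where S100a10 was near 0, Anxa2 stood at 1460 and 1136 CPM. Anxa1, an annexin that binds S100a11, was higher in PyMT-N NK-like cells, at 37.1 and 146 CPM, and in T-like cells, at 4.45 and 37.2 CPM (10 and 18 UMIs). Cd36, a scavenger receptor of S100a8 and S100a9, stood at 36.3 CPM in PyMT-M against 10.0 CPM in PyMT-N monocyte-like cells. In intermediate cells it stood at 76.5 and 19.2 CPM, and in macrophage-like cells at 10.5 and 19.3 CPM. It was the 1 of 5 measured receptors past 2-fold in monocyte-like cells and the 1 of 4 in intermediate cells. Of all genes, 5.4% and 6.29% were that much higher in PyMT-M there. In B-like cells 1 of 2 measured receptors, Bsg, was higher in PyMT-N, on 6 and 19 UMIs, beside 7.24% of all genes. The plasminogen genes Plgrkt, Plau and Plaur were under 2-fold apart except Plau in monocyte-like cells, with 16 and 8 UMIs.

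Over the 16 pairs of class and library with at least 30 cells, the S100a8 and S100a9 levels had a Pearson correlation of 0.99 on the log2(CPM + 1) scale, a description over points that share libraries and depth. S100a10 ran against S100a8, at -0.64. Of 5674 genes compared, the pattern of S100a8 was most like that of Cxcr2, the neutrophil chemokine receptor, at 0.96, and Il1r2, at 0.93, both of which helped to define the class, and then like that of Steap4 at 0.92. The genes most like the other members were Anxa2 (0.91) and Sema4a (0.92) for S100a6, Tmsb10 (0.93) and Crip1 (0.92) for S100a10, Dok2 (0.87) and Hopx (0.87) for S100a4, and Txn1 (0.85) for S100a11. Within neutrophil-like cells thinned to 1000 UMIs, S100a8 and S100a9 had a correlation of 0.91 over 41 cells in PyMT-M and 0.84 over 2758 cells in PyMT-N, again as a description.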

How the data were processed

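The authors deposited raw UMI counts per gene and cell barcode for 1 library per tumour. Per the file headers they were written by matrix software version 3.1.0. The submitters' processing notes name Cell Ranger, Seurat and the build mm10, with no versions, and no source used here states the strand setting. The counts summed to 43977988 over 7476 barcodes in PyMT-M and 14907736 over 5020 barcodes in PyMT-N. Barcodes with fewer than 200 genes or more than 10% mitochondrial UMIs were left out (119 and 26). The doublet caller (Scrublet in scanpy 1.11.5) set a threshold that marked 0 cells, so the cells with the highest scores were left out instead, at a rate of 0.8% per 1000 cells (440 and 201).

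A cell took a class when it had at least 3 UMIs from at least 2 markers of that class and 2/3 of its marker UMIs were of that class. Monocyte and macrophage markers were first joined and then divided by the same share. Clusters served only as an alternative. Ratios used a pseudocount of 1 CPM and classes of at least 30 cells in each library, and genes with at least 20 UMIs were counted. Intervals are exact Poisson intervals for levels, exact conditional binomial intervals for ratios and Clopper-Pearson intervals for shares, at 95%. A limit for a count of 0 is that of 3 counts. The ratio code was tested on simulated data. The named genes are the members, the genes of fixed lists and, for each member, the 5 genes with the most similar pattern among those with 50 CPM in at least 1 class. The members, the lists and the class markers were chosen with earlier results of these data known. S100a2 and Gm42674 were added after their values were seen. So were the medians without S100a8 and S100a9, and the level of the pair in cells with fewer than 10 of its UMIs. One subset of T-like cells is not reported here.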

Additional observations from a re-analysis of the deposited data

Results flagged for a closer look

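Some subsets of cells differed in opposite directions in the tumours, with counting intervals clear of 0 on either side. The difference between the tumours was not tested, and there is 1 library of each. The part of depth in choosing cells by a UMI of the subset genes was not tested either. In macrophage-like cells with a UMI of Ctsk or Mmp12, against those without, S100a6 differed by a log2 value of 1.11 (0.92 to 1.30) in PyMT-M and -0.69 (-0.87 to -0.52) in PyMT-N. S100a10 differed by 1.02 (0.76 to 1.29) and -0.53 (-0.85 to -0.23), and S100a11 by 0.70 (0.30 to 1.08) and -0.43 (-0.72 to -0.15). These are 51 of 5064 cells in PyMT-M and 116 of 676 in PyMT-N. In resident-marked macrophage-like cells S100a9 differed by -0.47 (-0.85 to -0.17) in PyMT-M and 0.99 (0.85 to 1.13) in PyMT-N. In both tumours few cells hold most S100a8 and S100a9 UMIs of the class, with 96.6% in 5 cells of PyMT-M and 93.7% in 26 of PyMT-N. Both S100a9 values therefore depend on which side those few cells fall.

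In T-like cells with Cd8a or Cd8b1, against those without, S100a6 differed by 0.79 (0.69 to 0.89) in PyMT-M and -0.79 (-1.03 to -0.56) in PyMT-N. S100a10 differed by 0.39 (0.25 to 0.52) and -1.10 (-1.47 to -0.75). In T-like cells with γδ receptor genes or Il17a, S100a6 differed by -0.13 (-0.21 to -0.04) in PyMT-M and 1.08 (0.91 to 1.26) in PyMT-N. The PyMT-N cells with Cd8a or Cd8b1 number 22, and those with γδ receptor genes or Il17a number 39.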

How the results depend on the processing

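No paired analysis was possible because each tumour line has 1 library. Of 37 log2 differences of members between the tumours, 19 were past 2-fold, and 216 of their 217 values under the alternatives kept their direction and 212 stayed past 2-fold. The exception in direction was S100a10 in neutrophil-like cells, which became 2.46 without the 3 cells with the most UMIs of the gene, so that 0 members were higher in PyMT-M there. That alternative, and the one with all members in cells without neutrophil marker UMIs, were chosen after seeing the data. S100a4 was 2-fold or more higher in PyMT-N in 6 of 7 classes, one of them neutrophil-like, and in 5 without those 3 cells. The number of members higher in PyMT-N in neutrophil-like cells was 0 with stricter classes, clusters or a pseudocount of 10 CPM, and 2 with looser classes. In B-like cells it was 2 with looser classes and 3 with clusters. In NK-like cells 1 member was higher in PyMT-M with clusters. Looser classes and clusters give no intermediate class. Scaling by the median ratio of genes with 100 UMIs shifts differences by up to -0.19, in macrophage-like cells.

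The percentage of all genes 2-fold apart fell with a pseudocount of 10 CPM from 48.6 to 22.1 in neutrophil-like, 8.77 to 3.32 in monocyte-like, 10.1 to 4.60 in intermediate, 11.8 to 3.85 in macrophage-like, 16.1 to 6.48 in T-like and 26.2 to 13.3 in NK-like cells. With at least 100 UMIs it was 28.8, 5.65, 6.05, 10.7, 16.035 and, in B-like cells (16.014 before), 7.91 in the classes it moved, which leave out macrophage-like cells. With at least 1 UMI it was 16.7 in monocyte-like, 29.5 in intermediate, 26.3 in T-like and 53.2 in B-like cells, and without a pseudocount 18.5 in macrophage-like cells. The PyMT-M neutrophil-like and B-like and the PyMT-N NK-like classes, with 44, 43 and 30 cells, limit the depth.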
